A study of Mus musculus with 2 samples.

Results

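Binding of p300 was examined at 8 genes that pattern the midbrain and the isthmus, the constriction between midbrain and hindbrain. The genes were Otx2, Otx1, En1, En2, Pax2, Lmx1b, Wnt1 and Fgf8, and each was given 1 window of 250 to 800 kb on the mouse build mm9, named for the gene. The windows covered 3.55 Mb in all. A peak was taken when its midpoint lay in a window, which gave 20 of the 2786 peaks of the midbrain list and 4 of the 3597 peaks of the heart list. The rule used positions and no read values, but the members and lists were chosen with earlier results of these data known. Where a gene lies within its window was not checked, since no mm9 annotation was used here.

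Both libraries were made by chromatin immunoprecipitation and sequencing (ChIP-seq) with the p300 antibody SC-585, 1 from midbrain and 1 from heart of CD-1 mouse embryos of mixed sex at embryonic day 11.5. Each tissue was pooled from about 150 embryos, so 1 library per tissue gives no replicate check, and every statement on a tissue below is a statement on its library. Both tissues were whole dissected material, and fewer cells of a type and less p300 per cell cannot be told apart. The protocol text that both libraries share names midbrain and does not name heart.

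p300 acetylates histones and is recruited to many active enhancers by transcription factors, and its binding does not measure how much RNA a gene makes. In the embryo, the homeobox factors Otx2 and Otx1 mark the forebrain and midbrain, and the hind edge of Otx2 expression sets the place of the isthmus. Cells at the isthmus secrete Fgf8 and Wnt1, and these signals, together with the transcription factors Pax2, Lmx1b, En1 and En2, maintain one another and pattern the midbrain in front and the cerebellum behind.

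The midbrain library held 5869671 aligned reads and the heart library 1303861, a depth ratio of 4.50. One read was therefore worth 0.170 rpm in the midbrain (library-scaled reads, with all aligned reads of a library as the base) and 0.767 rpm in the heart. A count of 0 was put at a floor of 3 reads, which is 0.511 rpm in the midbrain and 2.30 rpm in the heart. The exact Poisson 95% interval of a count of 0 reaches higher than this floor, to 2.83 rpm in the heart. Intervals are exact 95% intervals and, since amplified reads that carry no molecular identifier need not be independent, they and the floors cover counting error only.

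Peaks of the midbrain list were concentrated at Otx2. The Otx2 window held 11 midbrain peaks, the Otx1 window 4, the En2 window 3 and the Lmx1b window 2. The En1, Pax2, Wnt1 and Fgf8 windows held none, so 4 of the 8 loci had a midbrain peak. Heart peaks were fewer, with 2 in the Otx1 window, 1 in the Wnt1 window and 1 in the Fgf8 window. Only the Otx1 window held peaks of both lists, and the En1 and Pax2 windows held peaks of neither. Over the 8 windows this came to 5.63 midbrain peaks per Mb, against 1.06 per Mb over 2639 Mb of chromosomes 1 to 19 and X. Heart peaks stood at 1.13 per Mb in the windows and 1.36 per Mb over the same chromosomes. The midbrain density rested in large part on 1 locus: without the Otx2 window, 9 peaks remained over 2.75 Mb, or 3.27 per Mb.

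**Figure D1:**
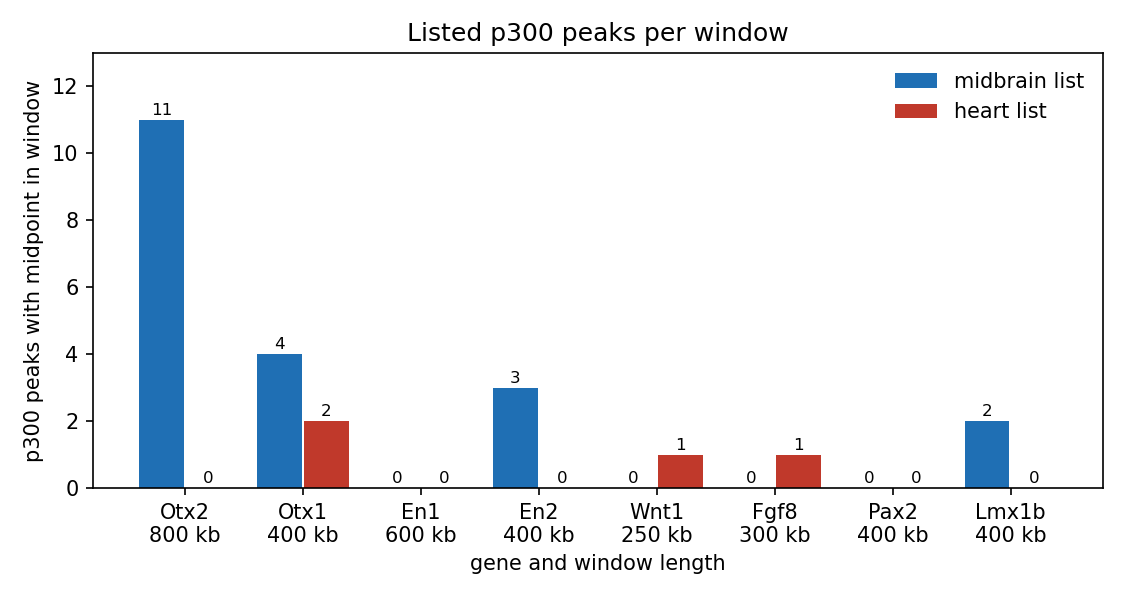
Number of listed p300 peaks with their midpoint in each gene's window (y axis), for the midbrain list (left bar) and the heart list (right bar), with the window length under each gene (x axis). The Otx2 window holds 11 of the 20 midbrain peaks, and the 4 heart peaks lie in the Otx1, Wnt1 and Fgf8 windows.

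The windows differ in length, so each was set beside all non-overlapping stretches of its own length on the same chromosomes. Of 3218 stretches of 800 kb, 9 (0.280%) held 11 or more midbrain peaks, and the fullest held 21. Of 6418 stretches of 400 kb, 128 (1.99%) held as many midbrain peaks as the Otx1 window or more, 244 (3.80%) as many as the En2 window or more and 582 (9.07%) as many as the Lmx1b window or more. An empty window was common in the midbrain list. No midbrain peak was present in 66.6% of stretches as long as the En1 window, 74.8% for Pax2, 82.5% for Wnt1 and 80.0% for Fgf8. The heart peaks were likewise at a common level, since 13.2% of stretches held 2 or more heart peaks at the length of the Otx1 window, and 21.6% and 24.6% held at least 1 at the lengths of the Wnt1 and Fgf8 windows. These shares describe the lists and are not a test.

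At the 20 midbrain peaks the midbrain library held 11 to 104 reads, with a median of 18, close to the median of 17 over the whole midbrain list. The peaks had a median width of 894.5 bp, against 743 bp over the list. Their deposited ranks ran from 33 to 2758, where 1 is the best, and 7 of the 20 ranked within the first 1000, which is the rank of 35.9% of the list. Reads came from both strands at all 20 peaks, with 230 on the plus and 248 on the minus strand. The authors' coverage track reached between 7 and 15 overlapping midbrain reads at these peaks, with a median of 9. The midbrain peaks listed at these genes were thus ordinary in read number, apart from 1 very wide peak at Otx2.

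The heart library held 0 to 3 reads at each of these 20 peaks. Heart reads were 0 at 10 of them, against 40.7% of the list, and at most 2 at 18, against 84.0% of the list. Because 1 heart read weighs as much as 4.50 midbrain reads, few single peaks could be told apart between the libraries. A peak with 0 heart reads needed 19 midbrain reads before its interval of the midbrain over heart ratio lay above 1, and one with 2 heart reads needed 36. Of the 20 peaks, 11 had fewer than 19 midbrain reads, as did 58.7% of the list. The interval lay wholly on the midbrain side at 4 of the 20 (20%), against 21.6% of the whole midbrain list. By a plain rule of at least 2 times as many midbrain rpm, with 0 heart reads put at the floor, 9 of the 20 (45%) passed, against 41.5% of the list. This rule is uneven, since it raises 0 heart reads to 3 and leaves counts of 1 and 2 as they are. All 10 peaks with 0 heart reads failed it, the highest at 1.55, while a peak with 17 midbrain reads and 1 heart read passed. Passing it therefore does not mark the better separated peaks. None of the 20 overlapped a heart peak, against 5.56% of the list. All 3 shares lay near the list's own share and set the loci apart in none of these counts.

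Summed over the 20 midbrain peaks, 478 midbrain reads stood against 18 heart reads. Per peak this was 4.07 rpm in the midbrain and 0.690 rpm in the heart, a ratio of 5.90 (interval 3.69 to 10.04). The other 2766 peaks of the midbrain list gave a ratio of 3.38 (3.27 to 3.49), and the 2611 of them that overlap no heart peak gave 4.28 (4.12 to 4.45). The midbrain peaks were listed from the midbrain reads, so a ratio above 1 follows from the choice, and only its size relative to the rest of the list is of use. The interval at the patterning loci overlapped that of the peaks outside the heart list. It also reached the ratio of the other 2766 peaks once the Otx2 window was left out, with 4.44 (2.29 to 9.87).

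Enrichment over flanks uses each library alone and divides the read density in a peak by the density 5 to 10 kb away on each side, with listed peaks left out. For midbrain reads it was 4.78 (4.27 to 5.34) over the 20 peaks, against 7.38 over the rest of the list. Single peaks ranged from 2.04 to 12.6 with a median of 5.07. The interval lay above 1 at all 20, against 99.6% of the list, which follows from the choice of peaks by midbrain reads. Heart reads did not choose these peaks. Their enrichment there was 1.12 (0.645 to 1.82), against 1.94 (1.86 to 2.02) at the other midbrain peaks that overlap no heart peak. At 1 of the 20 (against 11.1% of the list) the heart interval lay above 1, the Otx2 peak of rank 617, with 8.09 (1.08 to 60.4) from 3 heart reads. Heart reads were thus not detectably denser at the patterning peaks than beside them, but the limit depended on the flanks. The heart enrichment was 1.38 (0.777 to 2.34) with flanks of 2 to 5 kb and 1.65 (0.960 to 2.67) with flanks of 10 to 20 kb. Midbrain enrichment over the 20 peaks moved too, to 4.24 (3.76 to 4.78) and 6.20 (5.58 to 6.88) with these flanks. No value for the rest of the list is given at these other flanks.

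**Figure D2:**
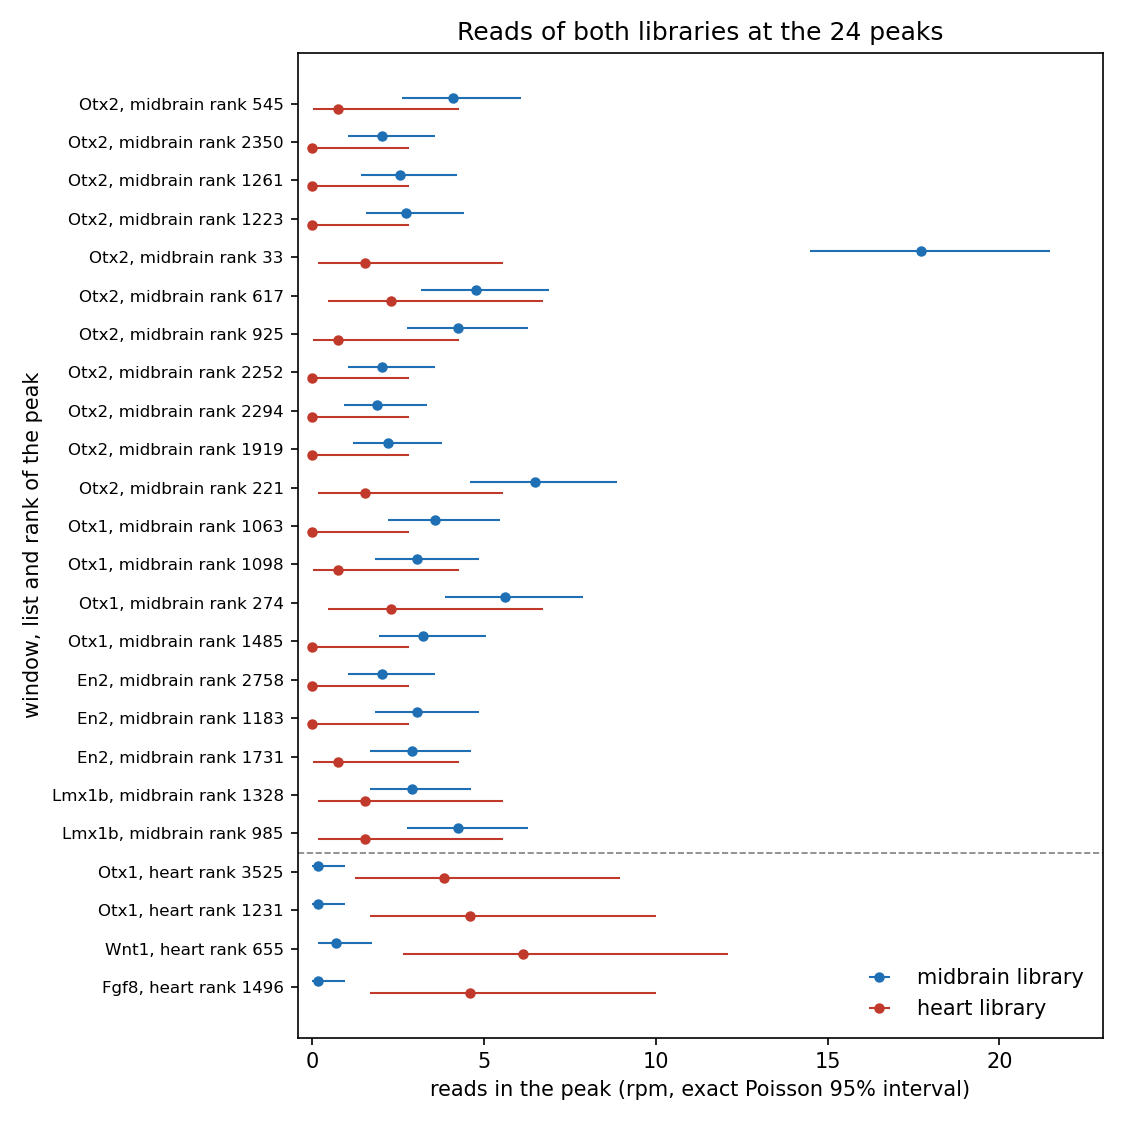
Reads in each of the 24 listed peaks in rpm (x axis) for the midbrain library (upper point) and the heart library (lower point), with exact Poisson 95% intervals, 1 row per peak named by window, list and rank. The midbrain peak of rank 33 at Otx2 reaches 17.7 midbrain rpm, and at every other midbrain peak the intervals of the libraries overlap.

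Otx2 encodes the homeobox factor without which neither forebrain nor midbrain forms. Its window, chr14:48800001-49600000, held 11 midbrain peaks spread over 398 kb, and 10 of the 11 had another within 50 kb. The best-ranked was chr14:49288861-49292911, rank 33 of 2786. It held 104 midbrain reads, 51 on the plus and 53 on the minus strand, and 2 heart reads. That was 17.7 rpm in the midbrain against 1.53 rpm in the heart, a ratio of 11.6 (3.12 to 96.6). The peak was listed from midbrain reads, so an excess on the midbrain side follows from the choice. At 4051 bp this was 1 of the 3 widest peaks of the midbrain list and 1 of 7 with at least 104 reads. It alone gave 34.9% of the 298 reads in the Otx2 peaks.

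The wide peak was not a single summit. Counted in pieces of 500 bp from its lower end, midbrain reads numbered 9, 16, 16, 12, 19, 14, 7 and 10, with 1 read in the last short piece. Both heart reads fell in the 8th piece. Midbrain reads thus lay along nearly the whole length. The midbrain enrichment was only 2.40 (1.81 to 3.17), since the flanks held 107 midbrain reads themselves.

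The flank reads on the lower side belonged to a dense stretch between the wide peak and the next listed peak below it. That next peak, chr14:49275442-49276110 (rank 1223), held 16 midbrain reads and 0 heart reads. The stretch that the 2 peaks span, 17.47 kb, was singled out after its values had been seen. It held 301 midbrain reads and 14 heart reads, a ratio of 4.78 (2.80 to 8.84). This was 17.2 midbrain reads per kb against 3.70 in the whole window, and 0.801 heart reads per kb against 0.522 in the whole window. Of the 301 midbrain reads, 120 lay in the 2 listed peaks and 181 lay in none. The stretch took 10.2% of the window's midbrain reads in 2.18% of its length.

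Inside this stretch, 3 bins of 1 kb that touch no listed peak held as many midbrain reads as a typical listed peak. The bin chr14:49283001-49284000 held 39 midbrain reads and 2 heart reads, a ratio of 4.33 (1.12 to 37.0), with up to 14 overlapping midbrain reads. The bin chr14:49281001-49282000 held 24 midbrain reads and 3 heart reads. Another bin, chr14:49284001-49285000, held 19 midbrain reads and 1 heart read. The list therefore left out bins with more midbrain reads than most listed peaks of the window, in counts that are not scaled for the peaks' smaller widths, and why it did so was not tested.

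**Figure D3:**
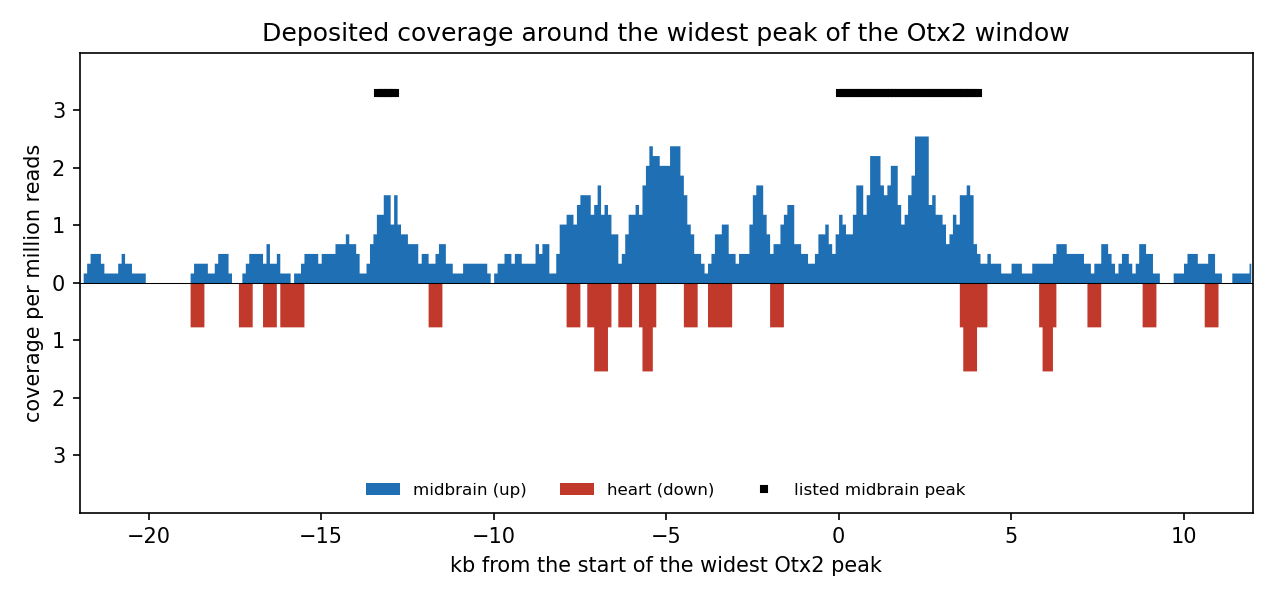
Coverage from the authors' track, scaled to each library's aligned reads in the manner of rpm (y axis, midbrain upward, heart downward), against distance in kb from the start of the widest Otx2 peak (x axis), with black bars for the 2 listed midbrain peaks. Midbrain coverage is raised between the bars as well as under them, while heart coverage consists of single reads or pairs of reads.

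The second best peak at Otx2 was chr14:49472356-49473689, rank 221. It held 38 midbrain reads and 2 heart reads, or 6.47 rpm in the midbrain against 1.53 rpm in the heart, a ratio of 4.22 (1.09 to 36.1). Its midbrain enrichment was 7.12 (4.45 to 11.4). The bin chr14:49474001-49475000, which lies 0.312 kb beyond it and touches no listed peak, held another 27 midbrain reads and 2 heart reads. With the wide peak, this was 1 of 2 Otx2 peaks whose ratio interval lay wholly on the midbrain side.

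At the other 9 Otx2 peaks the ratio interval included 1. The peak chr14:49328917-49330152 (rank 617) held 28 midbrain reads and 3 heart reads, the one at chr14:49360154-49361296 (rank 925) 25 and 1, and the one at chr14:49075887-49076778 (rank 545) 24 and 1. Of these, rank 617 stood out most from its flanks in midbrain reads, with an enrichment of 12.6 (6.72 to 24.2). The remaining peaks had 0 heart reads and few midbrain reads. They included the pair chr14:49131876-49132494 (rank 2350) and chr14:49132636-49133191 (rank 1261), 0.141 kb apart, with 12 and 15 midbrain reads. Further along lay chr14:49371416-49371995 (rank 2252) with 12 midbrain reads, chr14:49432647-49433236 (rank 2294) with 11 and chr14:49434768-49435320 (rank 1919) with 13. At 0 heart reads these counts were too low to separate the libraries. Summed over all 11 peaks, 298 midbrain reads stood against 9 heart reads, a ratio of 7.36 (3.82 to 16.2).

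Otx1 encodes the paralog that acts with Otx2 in forebrain and midbrain. Its window, chr11:21700001-22100000, held 4 midbrain peaks within 35.0 kb. The best-ranked was chr11:21908095-21909181, rank 274, with 33 midbrain reads and 3 heart reads, or 5.62 rpm in the midbrain against 2.30 rpm in the heart. The ratio was 2.44 (0.766 to 12.5), which includes 1. Its neighbour chr11:21907232-21907993 (rank 1098) lay 0.101 kb below it and held 18 midbrain reads and 1 heart read. Neither peak alone was separated between the libraries. Their sum of 51 midbrain reads against 4 heart reads gave a ratio of 2.83 (1.04 to 10.8). Since midbrain reads chose both peaks, a sum on the midbrain side follows from the choice and does not separate the libraries.

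The other 2 Otx1 peaks had no heart read. The peak chr11:21902948-21903844 (rank 1063) held 21 midbrain reads and 0 heart reads. With heart put at its floor the ratio was 1.55, a value that leaves out the counting error of the midbrain reads. The lower bound of its interval was 1.16. The peak chr11:21936916-21937927 (rank 1485) held 19 midbrain reads and 0 heart reads, a ratio of 1.41 with heart at its floor, with a lower bound of 1.04. Both passed the interval rule, but the second did so by the smallest possible number of reads, and moving reads by 150 bp put its lower bound at 0.977. Over the 4 peaks, 91 midbrain reads stood against 4 heart reads, a ratio of 5.05 (1.91 to 18.9).

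The Otx1 window was the only one with peaks of both lists, and they lay apart. The nearest heart peak started 117 kb above the last midbrain peak. The heart peak chr11:22082007-22082636 (rank 1231 of 3597) held 1 midbrain read and 6 heart reads, or 0.170 rpm in the midbrain against 4.60 rpm in the heart. Heart over midbrain, the ratio was 27.0 (3.28 to 1242). The other, chr11:22055377-22056159 (rank 3525), held 1 midbrain read and 5 heart reads, a heart over midbrain ratio of 22.5 (2.52 to 1065). Both heart peaks thus carried almost no midbrain reads, with very wide intervals from such low counts.

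En2 and En1 encode the Engrailed homeobox factors, which act on both sides of the isthmus. The En2 window, chr5:28300001-28700000, held 3 midbrain peaks over 39.7 kb. The best-ranked, chr5:28537024-28537820 (rank 1183), held 18 midbrain reads and 0 heart reads. With heart put at its floor the ratio was 1.33, but the lower bound of its interval was 0.977, 1 midbrain read short of the number needed. Its neighbour 0.063 kb above, chr5:28537884-28538801 (rank 1731), held 17 midbrain reads and 1 heart read. The peak chr5:28499145-28499770 held 12 midbrain reads and 0 heart reads, and at rank 2758 it stood near the end of the list. No single En2 peak was separated between the libraries. The sum of 47 midbrain reads against 1 heart read gave a ratio of 10.4 (1.79 to 421), on the side that follows from the choice of peaks by midbrain reads.

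The En1 window, chr1:122200001-122800000, held no peak of either list. The nearest midbrain peak beyond its edges lay 412 kb away. The densest bin of the window, chr1:122521001-122522000, held 18 midbrain reads and 0 heart reads, as many as the best En2 peak. These counts are not scaled for width, and the En2 peak was narrower than the 1 kb bin, at 797 bp. Up to 7 midbrain reads overlapped in the bin, against 9 at the En2 peak. The bin lay in the only 50 kb segment of the En1 window with a read ratio on the midbrain side. That segment held 200 midbrain reads and 26 heart reads, a ratio of 1.71 (1.13 to 2.68). By unscaled read count, the En1 window thus held 1 bin at the level of listed midbrain peaks although no peak was listed there.

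Lmx1b encodes a LIM homeobox factor needed to maintain the isthmic signals and to form midbrain dopamine neurons. The 2 midbrain peaks of its window, chr2:33250001-33650000, both lay near the upper edge. The better-ranked, chr2:33643754-33645025 (rank 985), had its midpoint 5.61 kb from the edge and held 25 midbrain reads and 2 heart reads, or 4.26 rpm in the midbrain against 1.53 rpm in the heart. Its ratio was 2.78 (0.692 to 24.2). The other, chr2:33637121-33638053 (rank 1328), held 17 midbrain reads and 2 heart reads. Neither was separated between the libraries, and their sum of 42 midbrain reads against 4 heart reads gave a ratio of 2.33 (0.846 to 8.96).

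Pax2 encodes a paired box factor that is among the first to mark the future midbrain and anterior hindbrain. Its window, chr19:44650001-45050000, held no peak of either list. The nearest midbrain peak lay 60.6 kb beyond the edge and was well ranked, at 236. Within the window the densest bin in the midbrain library, chr19:44801001-44802000, held 16 midbrain reads and 1 heart read, 1 read below the median of listed midbrain peaks.

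The windows of both secreted signals held a heart peak and no midbrain peak. Neither heart peak lay in the central 50% of its window. Wnt1 encodes a signal without which the midbrain is lost. In its window, chr15:98500001-98750000, the heart peak chr15:98702164-98702984 (rank 655) held 4 midbrain reads and 8 heart reads, or 0.681 rpm in the midbrain against 6.14 rpm in the heart. Heart over midbrain, the ratio was 9.004 (2.41 to 40.9). A midbrain peak of rank 2424 lay 29.6 kb beyond the edge of the window. Wnt10b and Ddn flank Wnt1 in the RefSeq gene order, and whether they lie in the window was not checked. No peak of any window can be assigned to its gene from these data.

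Fgf8 encodes the main signal secreted by the isthmus. In its window, chr19:45650001-45950000, the heart peak chr19:45705949-45706655 (rank 1496) held 1 midbrain read and 6 heart reads, or 0.170 rpm in the midbrain against 4.60 rpm in the heart, and a heart over midbrain ratio of 27.0 (3.28 to 1242). The nearest midbrain peak lay 1061 kb beyond the edge. The window further held a pile of midbrain reads outside both lists that was taller than any of the 20 listed midbrain peaks, which reached 7 to 15. The bin chr19:45724001-45725000 held 32 midbrain reads and 10 heart reads, with up to 26 overlapping midbrain reads and up to 8 overlapping heart reads. It was the densest bin of the window in both libraries. Its midbrain over heart ratio of 0.711 (0.341 to 1.62) includes 1.

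Taking the 4 heart peaks together, all had a ratio interval wholly on the heart side, against 90.0% of the heart list, and all passed the rule of at least 2 times as many rpm, against 97.8%. None overlapped a midbrain peak, against 4.28% of the list. They held 7 midbrain reads and 25 heart reads, a heart over midbrain ratio of 16.1 (6.76 to 44.0), where the other heart peaks gave 7.95 (7.78 to 8.13) and those outside the midbrain list 9.34 (9.12 to 9.56), both within the interval at the 4 peaks. The 4 peaks were listed from the heart reads, so the heart side follows from the choice. Midbrain reads, which did not choose them, had an enrichment over flanks of 0.992 (0.388 to 2.12) at the 4 heart peaks, against 1.66 (1.62 to 1.69) at the other heart peaks outside the midbrain list.

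Sites outside the lists were counted over all 8 windows. Of 3505 bins of 1 kb that touch no listed peak, 6 (0.171%) held at least 17 midbrain reads, the median of listed midbrain peaks, against 0.0279% of such bins on all chromosomes examined. The Otx2 window held 4 of the 6, and the En1 and Fgf8 windows held 1 each. Elsewhere the densest bins fell short, with 16 midbrain reads and 0 heart reads at chr11:21957001-21958000 in the Otx1 window, 14 and 0 at chr5:28449001-28450000 in the En2 window, and 13 and 1 at chr15:98505001-98506000 in the Wnt1 window.

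**Figure D4:**
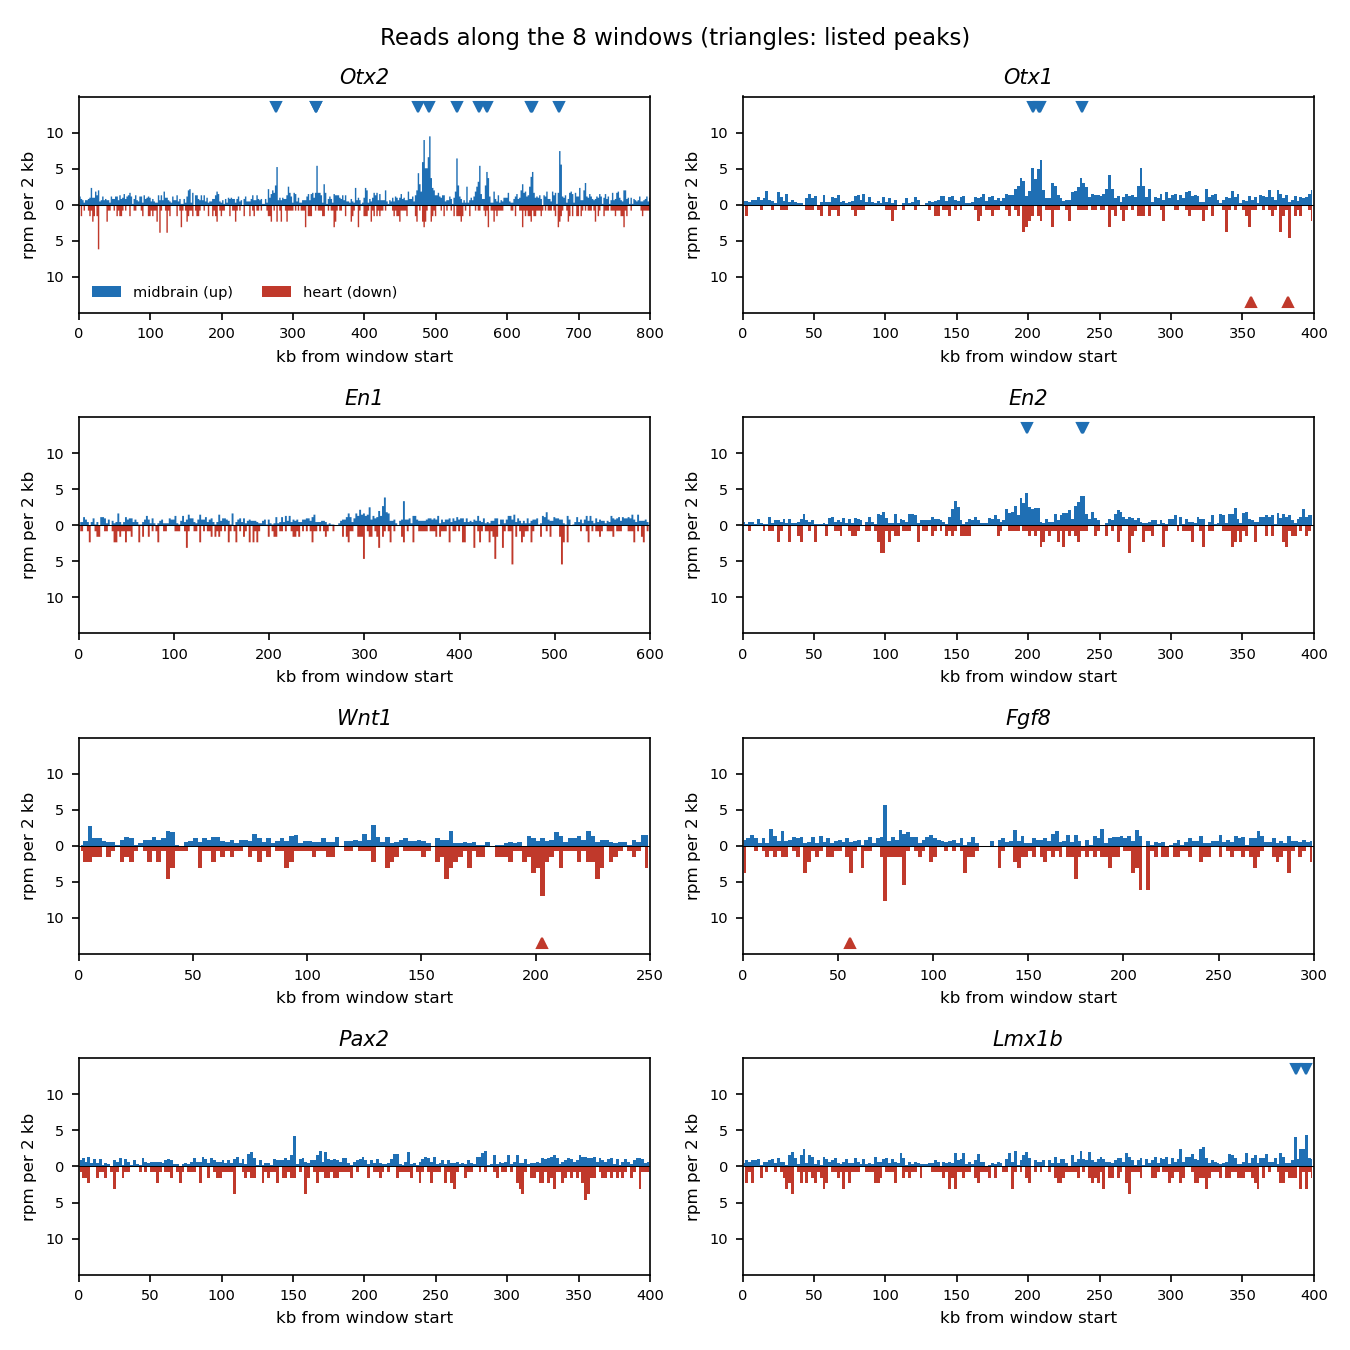
Reads in rpm per 2 kb (y axis, midbrain upward, heart downward) along each window in kb from its start (x axis), with triangles for listed midbrain peaks at the top and listed heart peaks at the bottom. Dense midbrain reads cluster in the Otx2, Otx1 and En2 windows, and the Fgf8 window has 1 bin that is dense in both libraries and carries no triangle.

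Reads outside listed peaks were compared next. How the authors' peak caller used such reads is not given in the sources used here. In the Otx2 window, 2663 midbrain reads and 409 heart reads lay outside peaks, a midbrain over heart ratio of 1.45 (1.30 to 1.61). In the Otx1 window the counts were 1254 midbrain and 171 heart reads, a ratio of 1.63 (1.39 to 1.92). The En2 window gave 1.18 (1.02 to 1.37) from 1132 midbrain and 213 heart reads. This was borderline, since a margin of 1 kb around peaks gave 1.16 (1.0004 to 1.35). These 3 windows, which also held the most midbrain peaks, lay on the midbrain side. En1, with 1444 midbrain and 309 heart reads, gave 1.04 (0.917 to 1.18) and could not be told from 1.

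The other 4 windows lay on the heart side. Wnt1 gave 0.592 (0.506 to 0.695) from 584 midbrain and 219 heart reads. Fgf8 gave 0.706 (0.611 to 0.819) from 779 midbrain and 245 heart reads. Pax2 and Lmx1b were close to each other, with 0.825 (0.720 to 0.949) from 981 midbrain and 264 heart reads, and 0.832 (0.729 to 0.952) from 1064 midbrain and 284 heart reads. In descending order of the ratio, the loci ran Otx1, Otx2, En2, En1, Lmx1b, Pax2, Fgf8 and Wnt1, and each interval overlapped that of the next locus. Loci further apart were separated beyond counting error, since the intervals of Otx1 and Otx2 lay above that of En1, and those of Wnt1 and Fgf8 lay below it.

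Such departures from 1 were common along the genome. A ratio on the midbrain side occurred in 42.3% of 800 kb stretches and 38.8% of 400 kb stretches. A ratio on the heart side occurred in 26.5% of 400 kb, 24.2% of 300 kb and 22.7% of 250 kb stretches. Judged by size, Wnt1 was the most extreme of the 8, with a lower ratio in only 3.19% of stretches of its length, followed by Otx1, with a higher ratio in 8.43%. Fgf8 had a lower ratio in 10.2% of stretches and Otx2 a higher one in 17.6%. Pax2 and Lmx1b had lower ones in 21.5% and 22.2%. En2 was ordinary in size, with a higher ratio in 40.3% of stretches of its length. Outside peaks the Wnt1 window held 674 heart rpm per Mb, the highest of the 8, ahead of Fgf8 with 628. Its 399 midbrain rpm per Mb were the lowest of the 8 but close to En1 with 410 and Pax2 with 418.

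**Figure D5:**
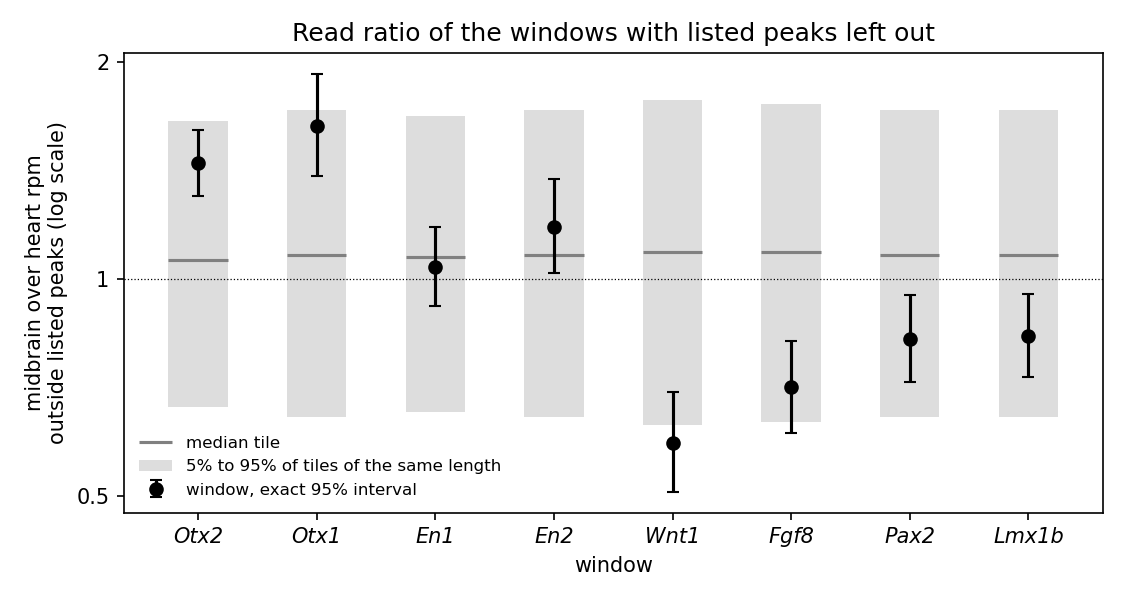
Midbrain over heart ratio of reads outside listed peaks (y axis, log scale) for each window (x axis), as points with exact 95% intervals, over grey bars from the 5% to the 95% point of all stretches of the same length and a line at their median. Otx2 and Otx1 lie above 1 and Wnt1 lies below 1 and below its grey bar.

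Within windows the ratio was followed in segments of 50 kb, again outside peaks. Of all 50 kb stretches on the chromosomes examined, 12.3% lay on the midbrain side and 11.2% on the heart side. Of the 16 segments at Otx2, 7 lay on the midbrain side and 0 on the heart side. The highest ratio, 2.39 (1.63 to 3.63), was in the segment with the wide peak. Of that segment's 312 midbrain reads outside peaks, 181 lay in the dense stretch described above. At Otx1, 4 of 8 segments lay on the midbrain side and 0 on the heart side. These 4 included the first 50 kb of the window, with 107 midbrain and 10 heart reads and a ratio of 2.38 (1.24 to 5.10), which held no listed peak. At En2, 1 of 8 segments lay on the midbrain side, with a ratio of 2.51 (1.53 to 4.40), and it held the peak of rank 2758. At Wnt1, 3 of 5 segments lay on the heart side, the lowest at 0.317 (0.221 to 0.457) next to the segment with the heart peak, from 77 midbrain and 54 heart reads. Pax2 had 2 of 8 segments on the heart side, Fgf8 1 of 6 and Lmx1b 1 of 8, and at these 3 loci no segment lay on the midbrain side. En1 had 1 of 12 on each side. At Otx2 and Otx1 the segments on the midbrain side included ones with and ones without a listed peak.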

How the data were processed

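For 1 midbrain and 1 heart library, read positions, coverage and listed peaks were used. The authors deposited aligned reads as counts, 1 read per line and lengthened to 300 bp. Their build is mm9, per the file headers. No read start was repeated on a strand, so repeats had been collapsed. The deposited signal is coverage at 25 bp steps, not scaled to library size. The deposited peak lists give start, end and rank, with no height or score. Peak caller, thresholds, controls and the midbrain aligner are not given in the sources used here. Coordinates are 1-based.

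The computation used scipy 1.17.1, numpy 2.4.6, pandas 2.3.3 and matplotlib 3.10.9 under Python 3.11.15. Read starts were moved inward by 35 bp (midbrain) and 23 bp (heart), from strand offsets of 70 and 46 bp searched between 46 and 500 bp. These offsets were weakly determined, and the heart value lies at the limit of the search. Reads were scaled to all aligned reads (rpm). Ratios carry exact conditional binomial 95% intervals. A ratio was put on 1 side when its interval excluded 1, and shared peaks overlapped by at least 1 bp. Unlisted bins of 1 kb were counted from the median reads of listed midbrain peaks, 17. The interval computation was tested on simulated data. With 1 library per tissue no p-value is given.

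Full statistics went to the best-ranked peak of each list in each window and to every peak with an interval on 1 side. Peaks named beyond these, dense bins, segments and the dense Otx2 stretch were named after their values were seen. The members and lists were chosen with earlier results of these data known. No mm9 sequence or annotation was used here, so no sequence is printed, and other patterning genes were not counted. Neighbouring genes come from RefSeq (GRCm38.p6), where 8 of 8 symbols matched.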

Additional observations from a re-analysis of the deposited data

How the results depend on the processing

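No paired analysis was possible because each tissue had 1 library and no replicate numbers are shared. For results that answer a comparison, 53 alternative values stayed within their limits, 10 moved and 0 reversed. Restricting the lists to ranks up to 1000 left 7 midbrain peaks (1.97 per Mb, against 0.379 over all chromosomes examined) and 1 heart peak (0.282 per Mb). Windows trimmed at both ends to 50% of their length held 0 heart peaks and 15 midbrain peaks. The rule of at least 2 times the reads put 9 midbrain peaks on the midbrain side, none of them a peak with 0 heart reads. Unlisted bins at the level of listed midbrain peaks numbered 3 with bins of 500 bp and 22 with the lower quartile of 13 reads as the minimum. No share over all chromosomes examined is given for these settings, so neither count can be called high or low. The pooled ratio at the midbrain peaks was 4.40 (2.58 to 8.15) for ranks up to 1000 and 4.44 (2.29 to 9.87) without the Otx2 window. For single peaks, 71 alternative values kept their side and 1 did not, the Otx1 peak of rank 1485, with a lower bound of 0.977 at a shift of 150 bp.

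The next 3 alternatives were chosen after seeing the data. Without the fullest window, density was 3.27 midbrain peaks per Mb (without Otx2) and 0.635 heart peaks per Mb (without Otx1). Without the peak of rank 33 the pooled ratio at the midbrain peaks was 5.19 (3.16 to 9.18). With dense unlisted bins taken out of the flanks, midbrain enrichment was 5.42. The heart depth limits all ratios at single midbrain peaks.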
